A study of Mus musculus with 2 samples.

Results

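The genes described here are Ccr2, which encodes a chemokine receptor of monocytes, and the genes of 4 of its ligands, Ccl2, Ccl7, Ccl8 and Ccl12. They were chosen by name, as 5 of the 32285 gene IDs in the count tables, and all 5 symbols matched 1 ID each. The cells came from the plantaris, a calf muscle, of male C57BL/6J mice. There were 5 mice, aged 12 weeks, and the labels give no genetic change. In the tenotomy group 1 plantaris of each mouse was taken 4 days after tenotomy, the cutting of a tendon, and in the sham group the plantaris of the other leg was taken at the same time. The series title calls the muscle mechanically loaded, and the labels do not name the tendon that was cut. The 5 muscles of a group were pooled, digested with collagenase, stained with Calcein AM and propidium iodide, sorted for living cells and made into 1 droplet library per group. The data therefore hold 1 tenotomy and 1 sham library, both legs came from the same animals, and no value below has a replicate or a test. Intervals are 95% intervals that cover counting error only.

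Ccr2 is carried by classical monocytes, which follow gradients of its ligands out of the bone marrow and into injured tissue. Ccl2, also called MCP-1, is the ligand best known for that recruitment, Ccl7 and Ccl12 act on the same receptor, and mouse Ccl8 is also known as an agonist of Ccr8. In skeletal muscle these ligands are known products of macrophages and of fibroblast-like mesenchymal cells after injury, and monocytes lose Ccr2 as they mature into macrophages.

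The 4 ligand genes lie together on chromosome 11 of mm10, all on the plus strand and within 81229 bases. Ccl2 is at chr11:82035571-82037453, Ccl7 at chr11:82045712-82047525, Ccl12 at chr11:82101845-82103400 and Ccl8 at chr11:82115185-82116799, with Ccl11 between Ccl7 and Ccl12. Ccr2 is on chromosome 9, at chr9:124101950-124113557 on the plus strand. Positions are from GENCODE vM21. Ccl8 and Ccl12 are the 2 ligand genes whose UMIs were mostly in macrophage-like cells after tenotomy, so the 250 bases before their start sites (RefSeq, GRCm38.p6, plus strand, 5′ to 3′) are shown together.
Ccl8, chr11:82114935-82115184: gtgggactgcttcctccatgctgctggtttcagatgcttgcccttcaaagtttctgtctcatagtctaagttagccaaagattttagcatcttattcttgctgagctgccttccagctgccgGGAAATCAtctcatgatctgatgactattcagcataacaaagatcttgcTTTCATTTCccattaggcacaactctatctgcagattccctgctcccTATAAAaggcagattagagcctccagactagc
Ccl12, chr11:82101595-82101844: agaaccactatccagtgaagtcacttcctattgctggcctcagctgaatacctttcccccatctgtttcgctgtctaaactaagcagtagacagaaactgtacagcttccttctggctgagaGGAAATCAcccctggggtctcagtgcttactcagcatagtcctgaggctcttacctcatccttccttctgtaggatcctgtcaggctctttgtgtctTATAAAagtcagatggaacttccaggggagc
The capitals mark TATAAA, which ends 27 bases before the Ccl8 start and 26 bases before the Ccl12 start, and the run GGAAATCA, which begins 128 bases before the start of both. In Ccl8 they also mark GAAANGAAA, read on the minus strand, from 79 to 71 bases before the start. It was searched as an interferon-stimulated response element with 1 base between its GAAA runs. Among 32536 windows of this length, 12.3% held TATAAA, 0.987% held GGAAATCA and 2.7% held GAAANGAAA on either strand. Neither window held TGANTCA, an AP-1 motif found in 6.73% of windows, nor the NF-kappa B motif (46% of windows) or the interferon-stimulated response element (2.98%) that were searched on both strands. Aligned end to end, the windows had 145 identical bases in 266 alignment columns (54.5%). These matches describe letters only. Promoters of 3 of the 5 genes were in the table used. The longest run that the transcripts of any pair of the 5 genes shared was 23 bases, between Ccl2 and Ccl7. The transcripts of Ccr2 share runs of at least 31 bases with 642 other genes, so some of its reads may not be unique to it. How such reads were counted was not examined.

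The deposited counts held 94556283 UMIs (unique molecular identifiers, counted transcripts) in 11950 tenotomy barcodes and 47781353 UMIs in 8463 sham barcodes, and 33 barcode sequences occurred in both. After limits on genes, UMIs and mitochondrial share and removal of predicted doublets, 10917 tenotomy and 7548 sham cells remained, with median depths of 5859 and 4851 UMIs. Clustering both libraries together, without the 5 genes, gave 15 classes named by markers. Comparisons were kept to the 9 classes in which neither library had fewer than 50 cells. Monocyte/macrophage-like cells were 41.0% of tenotomy cells (4479 cells) and 5.79% of sham cells (437 cells). Mesenchymal progenitor-like cells, the fibroblast-like cells of muscle, were 16.6% of tenotomy (1815 cells) and 28.5% of sham cells (2154 cells). All 8 macrophage markers and all 7 mesenchymal markers were in at least 10% of the cells of their class in both libraries. Within the monocyte/macrophage-like class, sub-clusters whose leading genes held more markers of another class than of macrophages made up 1324 tenotomy and 198 sham cells. In the mesenchymal class such sub-clusters made up 96 tenotomy and 322 sham cells. Markers of other cell types also differed in summed level between the libraries. In macrophage-like cells the 7 mesenchymal markers summed to 224 CPM in tenotomy and 1181 CPM in sham cells, the 7 blood endothelial markers to 22.2 CPM in tenotomy and 346 CPM in sham cells, the 7 tenocyte markers to 25.96 CPM in tenotomy and 293 CPM in sham cells and the 6 erythroid markers to 43.5 CPM in tenotomy and 2440 CPM in sham cells. Of those 7 mesenchymal markers, 3 were in at least 10% of tenotomy and 5 in at least 10% of sham macrophage-like cells. In mesenchymal cells the 7 tenocyte markers summed to 1633 CPM in tenotomy and 88.4 CPM in sham cells, and the 8 macrophage markers to 399.6 CPM in tenotomy and 367 CPM in sham cells. The part of these in the differences below was not tested beyond leaving out the sub-clusters just named.

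Over all kept cells every one of the 5 genes was at a higher level in the tenotomy library. Levels are CPM, the summed UMIs of a gene scaled to a common total, and a fold is tenotomy over sham. Ccl2 was at 733 CPM in tenotomy cells and 335 CPM in sham cells (fold 2.19, interval 2.15 to 2.23). Ccl7 was at 485 CPM in tenotomy and 223 CPM in sham cells (fold 2.18, 2.13 to 2.22). Ccl8 was at 135 CPM in tenotomy and 10.9 CPM in sham cells, Ccl12 at 46.3 CPM in tenotomy and 7.27 CPM in sham cells, and Ccr2 at 134 CPM in tenotomy and 16.8 CPM in sham cells, so that the receptor differed by 7.98-fold (7.41 to 8.60) and Ccl8 by 12.5-fold, the largest of the 5. The mix of classes, taken here as the share of each class in the UMIs of a library, differed between the libraries. With the level of each class held as in sham cells, the tenotomy mix of classes gave 2.26 times the sham level for Ccl2, 2.10 times for Ccl7, 2.48 times for Ccl8, 4.90 times for Ccl12 and 4.28 times for Ccr2. With the sham mix held, the tenotomy levels gave 2.02, 1.67, 4.63, 1.85 and 2.16 times. The class mix therefore gave the larger factor for Ccl2, Ccl7, Ccl12 and Ccr2, by little for Ccl2, and the levels gave the larger factor for Ccl8. This mix holds UMIs per cell as well as numbers of cells, so it is not a split by cell number. A share of cells in a pooled, sorted suspension does not tell a change in number in the muscle from a change in recovery.

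Mesenchymal and macrophage-like cells together held most of each ligand. Mesenchymal progenitor-like cells held 63.3% of the Ccl2 UMIs in the tenotomy library and 44.4% in the sham library, and monocyte/macrophage-like cells held 29.8% in tenotomy and 33.7% in sham. For Ccl7 the mesenchymal share was 52.9% in tenotomy and 62.6% in sham cells and the macrophage share 42.4% in tenotomy and 28.6% in sham cells. For Ccl8, macrophage-like cells held 86.1% of the UMIs after tenotomy and 38.3% in sham muscle, and mesenchymal cells held 8.29% after tenotomy and 54.7% in sham muscle. Ccl12 lay almost wholly in macrophage-like cells, with 94.1% after tenotomy and 96.3% in sham muscle. The receptor Ccr2 had 87.0% of its UMIs in monocyte/macrophage-like cells after tenotomy and 64.7% in sham muscle, while dendritic-like cells held 6.07% in tenotomy and 13.2% in sham cells, and lymphoid cells of the T or natural killer-like class held 1.57% in tenotomy and 10.4% in sham cells. These shares follow the sizes of the classes. With every class weighted equally, the macrophage-like share of Ccl8 was 44.4% in tenotomy and 62.3% in sham cells and that of Ccl7 20.6% in tenotomy and 55.6% in sham cells, both the other way round, and that of Ccl2 was 11.5% in tenotomy and 47.6% in sham cells.

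**Figure D1:**
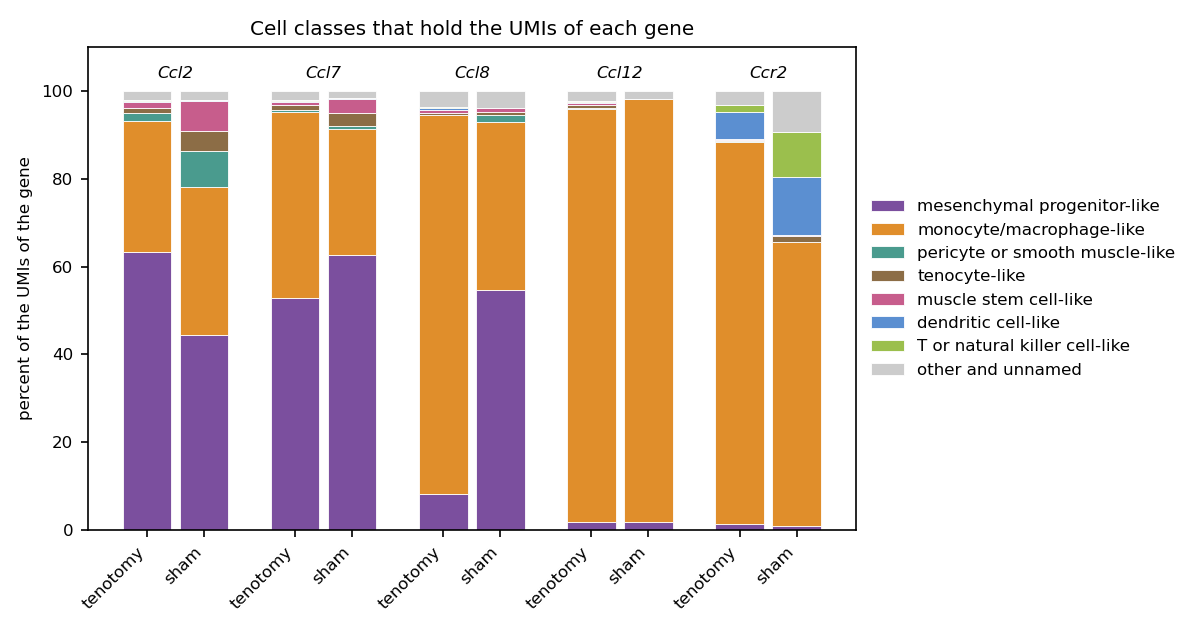
Share of the UMIs of each gene (percent, vertical axis) held by each cell class, with the tenotomy library left of the sham library for each gene. Ccl2 and Ccl7 were split between mesenchymal and macrophage-like cells in both libraries, macrophage-like cells held 86.1% of Ccl8 after tenotomy and 38.3% in sham muscle, and they held 94.1% of Ccl12 after tenotomy and 96.3% in sham muscle.

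Ccl2, the main monocyte attractant, differed in opposite directions in its 2 main sources. In mesenchymal progenitor-like cells it was at 1317 CPM (1304 to 1330) after tenotomy and 392 CPM (383 to 402) in sham muscle, a fold of 3.36 (3.27 to 3.45). In monocyte/macrophage-like cells it was at 657 CPM (648 to 666) after tenotomy and 1712 CPM (1665 to 1760) in sham muscle, a fold of 0.384 (0.372 to 0.396). Among classes with at least 50 cells, the order after tenotomy was mesenchymal, pericyte, macrophage-like and tenocyte-like cells, and in sham muscle it was macrophage-like, pericyte, mesenchymal and muscle stem cell-like cells, with no overlap of intervals between neighbours. The share of cells with a Ccl2 UMI had the same directions. With every cell thinned to 1000 UMIs it was 43.2% of tenotomy and 15.1% of sham mesenchymal cells, and 30.6% of tenotomy and 47.4% of sham macrophage-like cells. Unthinned, it was 74.2% of tenotomy and 31.8% of sham mesenchymal cells, with median depths of 14641 UMIs in tenotomy and 8146 UMIs in sham cells. In macrophage-like cells it was 59.8% of tenotomy and 67.3% of sham cells, with median depths of 6118 and 5880 UMIs in tenotomy and sham cells. Blood endothelial-like cells, a class with little Ccl2, had a UMI in 4.41% of thinned tenotomy cells and 1.35% of thinned sham cells, below every share just given for the 2 main sources. Without the sub-clusters led by markers of another class, the log2 fold of Ccl2 was −1.35 in macrophage-like cells and 1.78 in mesenchymal cells, beside −1.38 and 1.75 with them.

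A gene was counted as measured in a class when it had at least 25 UMIs and 50 CPM in the higher library and at least 10% there of its level over all cells. In mesenchymal cells Ccl2 and Ccl7 were measured, and 1 of these 2, Ccl2, was at least 2-fold higher after tenotomy, as were 15.8% of the 3548 genes measured there. In monocyte/macrophage-like cells all 5 were measured. Ccl8 and Ccr2 were at least 2-fold higher, against 6.65% of 3235 measured genes, and Ccl2 was at least 2-fold lower, against 7.85%. The log2 fold of Ccr2, 1.08, was close to the limit. It was 0.90 at Leiden resolution 1.5, 0.92 with predicted doublets kept and −0.29 in cells at or below the class's median share of immediate early genes, described further on. The median log2 fold of the 5 was 0.30, beside 0.11 for all measured genes. In muscle stem cell-like cells both measured members, Ccl2 and Ccl7, were at least 2-fold lower, against 17.4% of 3491 genes, although as a mean over cells their log2 folds were −0.90 and −0.81.

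**Figure D2:**
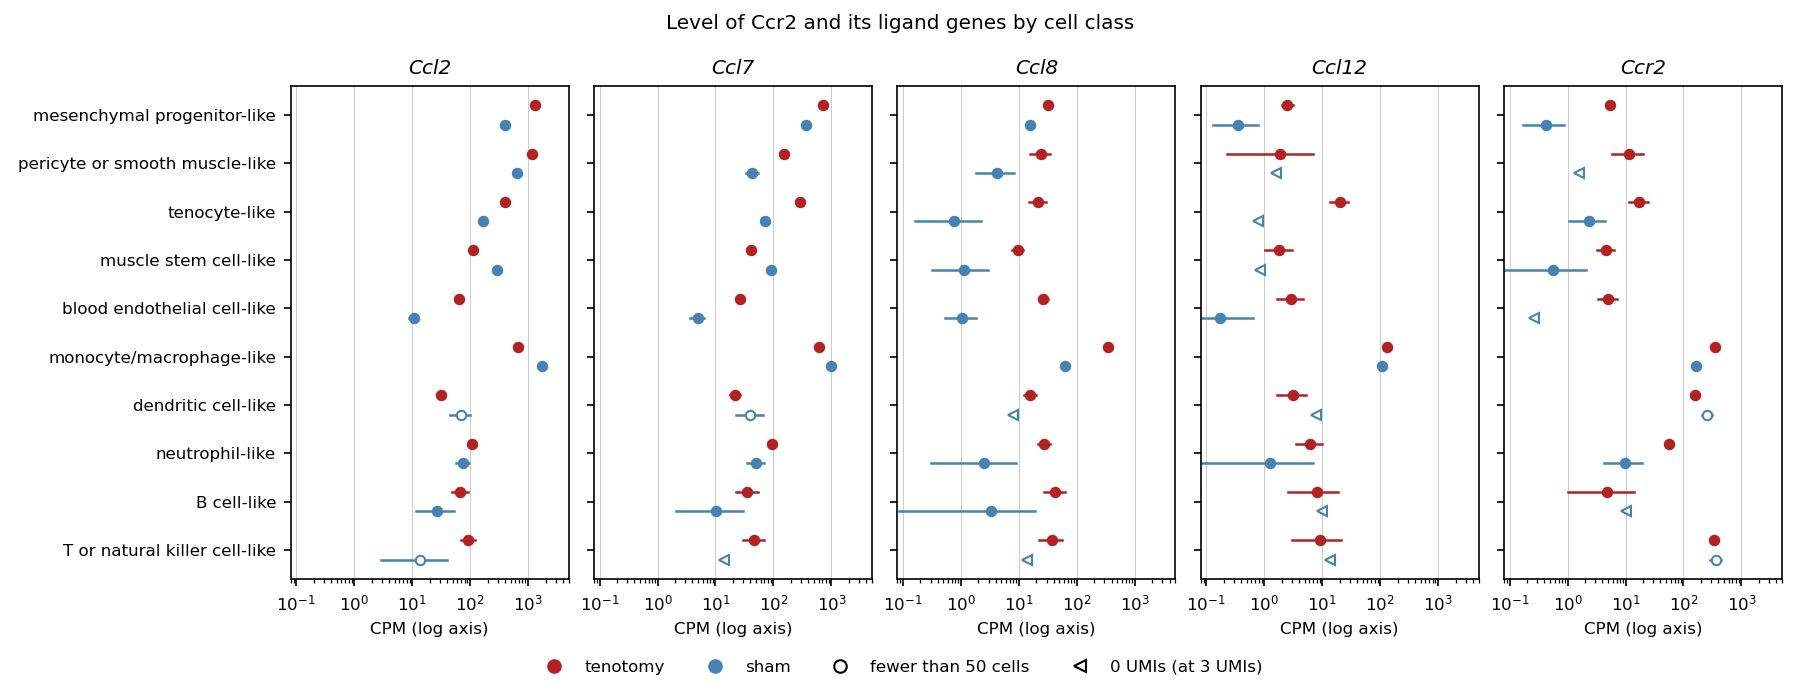
Level of each gene in 10 cell classes, in CPM of summed UMIs on a log axis, with tenotomy in red above sham in blue. Lines are 95% Poisson intervals (counting error only), open circles are classes with fewer than 50 cells in a library, and open triangles mark 0 UMIs at the level that 3 UMIs would give. Ccl2 is higher after tenotomy in mesenchymal, pericyte and tenocyte-like cells and lower in macrophage-like and muscle stem cell-like cells, and Ccr2 is highest in macrophage-like, T or natural killer-like and dendritic-like cells.

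The mesenchymal class was made of different clusters in the 2 libraries. Of its cells, 1318 tenotomy cells and 3 sham cells lay in a cluster led by the matrix genes Postn, Cthrc1 and Tnc. That cluster alone held 92.7% of the mesenchymal Ccl2 UMIs of the tenotomy library, at 1358 CPM. In 3 clusters both libraries had at least 50 cells. In the cluster led by Gdf10, Sfrp4 and C7, Ccl2 was at 859 CPM in 169 tenotomy cells and 192 CPM in 379 sham cells, a fold of 4.47 (4.03 to 4.96). In the cluster led by Smoc2 and Mme it was at 788 CPM in 117 tenotomy cells and 339 CPM in 1137 sham cells, a fold of 2.32 (2.10 to 2.57). In the cluster led by Pi16 and Efemp1, markers of adventitial progenitors, it was at 492 CPM in 174 tenotomy cells and 271 CPM in 323 sham cells, a fold of 1.82 (1.64 to 2.01). Ccl2 was thus higher after tenotomy in each of the 3, by different amounts. The last of these was the least stable. With cells thinned to 1000 UMIs its fold was 1.37 (0.923 to 2.02), and it was 1.12 in cells at or below and 1.08 in cells above the cluster's median share of immediate early genes, described further on. In the Gdf10 and Sfrp4 cluster the fold was 4.19 at or below that median and 1.53 above it.

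Sub-clusters of the mesenchymal class spread Ccl2 over a wide range. A small sub-cluster led by Sbspon and Apod had the highest level in either library, 8659 CPM in 29 tenotomy cells and 6176 CPM in 34 sham cells (fold 1.4, 1.29 to 1.52). It held 1502 of the 6587 mesenchymal Ccl2 UMIs of the sham library. Without it, the log2 fold of Ccl2 over the class was 2.07, beside 1.75 with it. Sbspon and Tenm2, among the leading genes of this sub-cluster, were also among those of the perineurial-like class, the cells of the nerve sheath. Whether the sub-cluster belongs with that class was not tested. Cells led by Tnc and Postn had 1403 CPM (699 tenotomy cells) and cycling cells led by Top2a and Mki67 had 1331 CPM (348 tenotomy cells), each with 1 sham cell. Cells led by Rsad2, Mmp3 and Pi16 had 1081 CPM (478 tenotomy cells and 9 sham cells). Of 4 further sub-clusters with more sham than tenotomy cells and at least 20 of each, 1 was clearly higher after tenotomy. Led by C4b, Gdf10 and C7, it had 1077 CPM in 95 tenotomy cells and 234 CPM in 174 sham cells (fold 4.61, 4.00 to 5.33). The one led by Nmb and Col6a6 had 397 CPM in 27 tenotomy cells and 303 CPM in 689 sham cells (fold 1.31, 0.999 to 1.69). The one led by Efemp1 and Dpp4 had 168 CPM in 20 tenotomy cells and 349 CPM in 617 sham cells, and the one led by Clu and Hmcn1 had 86.9 CPM in 23 tenotomy cells and 95 CPM in 167 sham cells. The directions in the Efemp1 and Dpp4 and in the Clu and Hmcn1 sub-clusters turned with the fineness of sub-clustering, so none is given for these few cells.

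**Figure D3:**
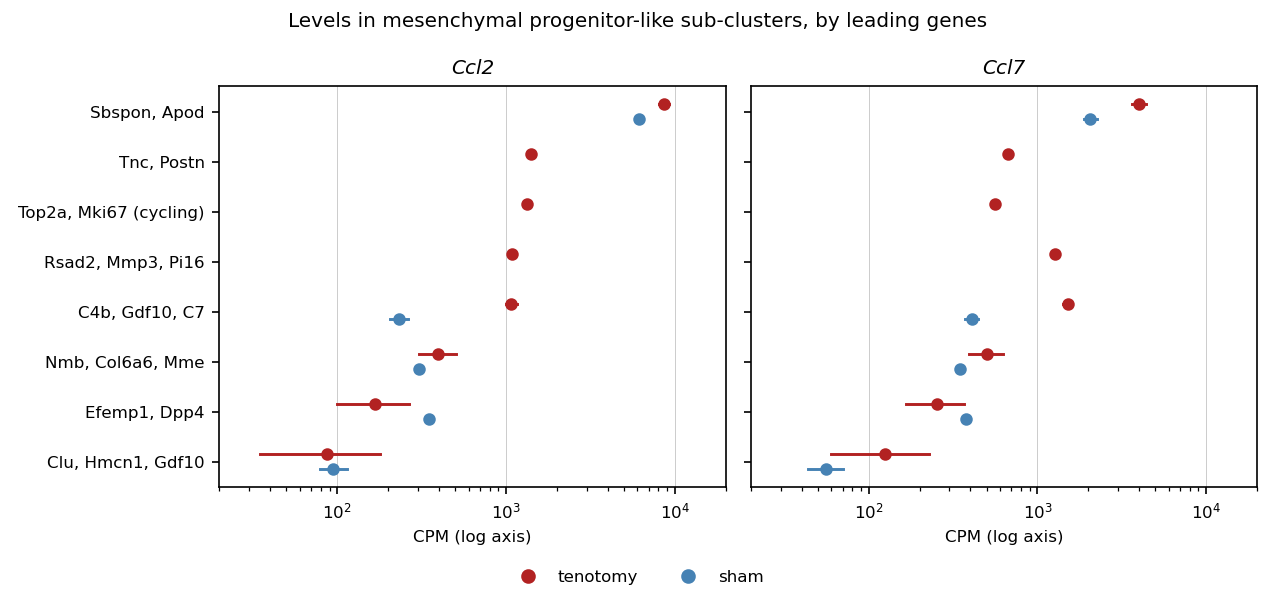
Level of Ccl2 and Ccl7 in sub-clusters of mesenchymal progenitor-like cells, in CPM on a log axis, with tenotomy in red above sham in blue and 95% Poisson intervals as lines. A library is shown where it had at least 20 cells. The Sbspon and Apod sub-cluster stands highest for both genes, and the Tnc and Postn, the cycling and the Rsad2 and Mmp3 sub-clusters lie between 560 and 1403 CPM after tenotomy.

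Among macrophage-like cells the lower Ccl2 of the tenotomy library was also seen inside clusters, by less when all their cells were taken. In the cluster led by Cd163, Lyve1 and Folr2, markers of tissue-resident macrophages, Ccl2 was at 1331 CPM in 715 tenotomy cells and 2179 CPM in 359 sham cells, a fold of 0.611 (0.588 to 0.635). In the cluster led by Ms4a4c, Plac8 and Ly6c2, genes of classical monocytes, it was at 420 CPM in 1826 tenotomy cells and 598 CPM in 54 sham cells, a fold of 0.703 (0.634 to 0.781). Both are nearer 1 than the 0.384 of the whole class, and with thinned cells the second was 0.748 (0.519 to 1.12). In resident-type cluster cells at or below the cluster's median immediate early share, of which 23 were sham cells, the fold was 0.244 (0.227 to 0.262), and above it 0.627 (0.589 to 0.666). The resident-type cluster held 82.2% of the sham cells of the class and 16% of its tenotomy cells, and a cluster led by Gpnmb, Arg1 and Spp1, with 1618 tenotomy cells and 0 sham cells, was at 481 CPM. In the resident-type cluster the thinned share of cells with a Ccl2 UMI was 57.2% in tenotomy and 50.9% in sham cells, which goes against the levels, so no order is read from it. Over the whole class the highest cell had 106 Ccl2 UMIs after tenotomy and 371 in sham muscle.

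The named states of macrophage-like cells were spread widely in Ccl2. After tenotomy the level was 1467 CPM (1391 to 1545) in resident-type cells, 1204 CPM in cycling cells, 920 CPM in interferon-response cells, 333 CPM in Spp1, Gpnmb and Fabp5 cells, which express lipid-handling genes, and 80.1 CPM (65.6 to 96.9) in Ly6c2 monocytes. No neighbours in this order had overlapping intervals. In sham muscle resident-type cells had 2070 CPM (213 cells) and Ly6c2 monocytes 100.9 CPM (18 cells), the same order. The thinned share of resident-type cells with a Ccl2 UMI was 64.3% (55.9 to 72.2) in tenotomy and 47.2% (40.3 to 54.1) in sham cells. That goes against the levels, so no direction between the libraries is read for this state. Its log2 fold, −0.50, lay between −0.94 and −0.13 in the alternatives.

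**Figure D4:**
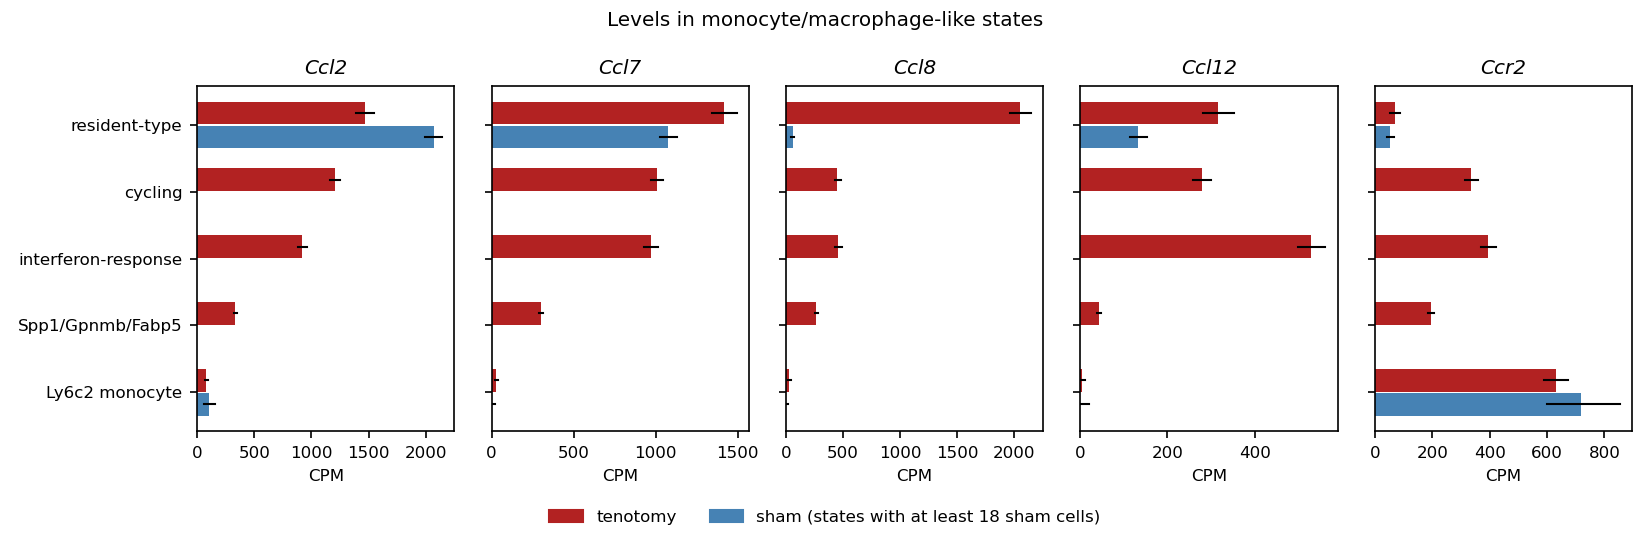
Level of the 5 genes (CPM, horizontal axis, starting at 0 and with its own range in each panel) in 5 states of monocyte/macrophage-like cells, with tenotomy in red above sham in blue and 95% Poisson intervals as lines. Sham bars are drawn for the 2 states with at least 18 sham cells. Ccl8 is at 2054 CPM in resident-type tenotomy cells and 59.0 CPM in resident-type sham cells, Ccl12 is highest in interferon-response cells, and Ccr2 is highest in Ly6c2 monocytes.

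In muscle stem cell-like cells Ccl2 was at 114 CPM (107 to 121) after tenotomy and 292 CPM (274 to 310) in sham muscle, a fold of 0.391 (0.358 to 0.427). Within the cluster that both libraries shared no stable difference was found. In the cluster led by Myf5, Chodl and Myod1, genes of undifferentiated stem cells and myoblasts, Ccl2 was at 285 CPM in 107 tenotomy cells and 294 CPM in 517 sham cells, a fold of 0.970 (0.815 to 1.15). Without the 1% of cells highest in Ccl2 it was 0.699 (0.542 to 0.889), and at or below the cluster's median immediate early share it was 1.24 (1.02 to 1.499). The other 423 tenotomy cells lay in a cluster led by Myog and Tnnt2, genes of differentiating muscle cells, with 102 CPM, and 3 sham cells lay there. The thinned shares of the whole class were 6.70% in tenotomy and 9.63% in sham cells (median depths 13543.5 UMIs in tenotomy and 5992.5 UMIs in sham). B cell-like cells, which are not a known source of Ccl2, had 7.08% in tenotomy and 5.66% in sham cells (median depths 1788.5 UMIs in tenotomy and 3462 UMIs in sham). The share after tenotomy was thus no higher than in B cell-like cells. The level of 114 CPM was above the 67.9 CPM (48.9 to 91.7) of tenotomy B cell-like cells. The highest tenotomy cell had 85 Ccl2 UMIs in the muscle stem cell-like class and 2 in the B cell-like class.

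Other stromal classes went with the mesenchymal cells. In pericyte or smooth muscle-like cells, the wall cells of vessels, Ccl2 was at 1172 CPM (1107 to 1239) after tenotomy and 652 CPM (617 to 690) in sham muscle, a fold of 1.80 (1.66 to 1.95), second among classes in both libraries. In tenocyte-like cells it was at 403 CPM (373 to 435) after tenotomy and 167 CPM (155 to 180) in sham muscle, a fold of 2.41 (2.16 to 2.69). Tenocyte-like cells had 2 measured members, Ccl2 and Ccl7, both at least 2-fold higher, against 6.05% of 3108 genes, and none lower, against 6.24%. Above the class's median immediate early share, in 53 tenotomy and 243 sham cells, the folds were 1.12 (0.739 to 1.63) for Ccl2 and 1.09 (0.637 to 1.77) for Ccl7. At or below it they were 1.67 for Ccl2 and 3.45 for Ccl7. Pericyte-like cells had 1 of 2, Ccl7, higher, against 5.18% of 3590 genes, and none lower, against 5.65%. Its log2 fold of 1.82 was 0.83 thinned, 0.83 without cycling cells and 2.94 with libraries clustered apart. Perineurial-like cells, of the nerve sheath, had 1147 CPM in 36 tenotomy cells and 75.1 CPM in 74 sham cells, with too few tenotomy cells for a comparison. In blood endothelial-like, B cell-like and myofibre-like cells no member was measured. Of all genes measured in blood endothelial-like cells, 6.29% passed 2-fold upward and 7.25% downward, and in B cell-like cells 9.08% and 3.86% did. Neutrophil-like cells had 108 CPM in tenotomy and 74.2 CPM in sham cells, with thinned shares of 5.56% in tenotomy and 5.62% in sham cells, at the level of B cell-like cells, and the direction turned with thinned cells (log2 fold −0.99).

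Ccl7 is the immediate neighbour of Ccl2 and was its nearest match. Over 23 combinations of class and library with at least 50 cells, the Pearson correlation of their log2(CPM + 1) was 0.896, the highest of either gene among 7860 genes considered. The combinations share 2 libraries, and r is given as a description. In mesenchymal cells Ccl7 was at 728 CPM (719 to 738) after tenotomy and 368 CPM (359 to 378) in sham muscle, a fold of 1.98 (1.92 to 2.03). In the 3 clusters held by both libraries it was at 1171 CPM in tenotomy and 305 CPM in sham cells (Gdf10 and Sfrp4), 1093 CPM in tenotomy and 370 CPM in sham cells (Smoc2 and Mme) and 604 CPM in tenotomy and 223 CPM in sham cells (Pi16 and Efemp1). These folds, 3.84, 2.95 and 2.72, were all larger than the fold over the class. In cells above the cluster's median immediate early share the first was 2.18, and the third was 4.45 above and 1.58 at or below it. The 699 tenotomy cells of the Tnc and Postn sub-cluster had 669 CPM, below the 1269 CPM of the Rsad2 and Mmp3 cells. Ccl2 and Ccl7 thus did not keep 1 ratio. Mesenchymal cells had 1.81 Ccl2 UMIs per Ccl7 UMI after tenotomy and 1.06 in sham muscle. Macrophage-like cells had 1.06 after tenotomy and 1.76 in sham muscle, and pericyte-like cells 7.74 after tenotomy and 15.2 in sham muscle.

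In monocyte/macrophage-like cells the direction of Ccl7 depended on which cells were set side by side. Over the class it was at 618 CPM (609 to 627) after tenotomy and 970 CPM (935 to 1007) in sham muscle, a fold of 0.637 (0.612 to 0.663). In the resident-type cluster it was at 1395 CPM in tenotomy and 1284 CPM in sham cells (fold 1.09, 1.04 to 1.14) and in the Ly6c2 and Plac8 cluster at 356 CPM in tenotomy and 234 CPM in sham cells (fold 1.52, 1.30 to 1.80). With thinned cells these folds were 1.08 and 1.02, and among cells of the resident-type cluster at or below its median immediate early share the fold was 0.414. The lower level over the class was thus found within neither cluster as a whole, but it was found in that stratum. In muscle stem cell-like cells Ccl7 was at 41.6 CPM in tenotomy and 92.4 CPM in sham cells over the class and at 89.7 CPM in tenotomy and 93.0 CPM in sham cells in the Myf5 and Chodl cluster (fold 0.964, 0.701 to 1.30). In tenocyte-like cells it was at 284 CPM in tenotomy and 72.6 CPM in sham cells (fold 3.91, 3.37 to 4.55) and in pericyte-like cells at 151 CPM in tenotomy and 42.9 CPM in sham cells (fold 3.53, 2.69 to 4.68). Cells with one of the pair often had the other. Among thinned macrophage-like cells, Ccl7 was found in 51.0% of tenotomy cells with Ccl2 and 15% of those without, and in 55.8% of sham cells with Ccl2 and 13.2% of those without. In mesenchymal cells the same figures were 53.1% and 26.9% after tenotomy and 24.5% and 13.9% in sham muscle.

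**Figure D5:**
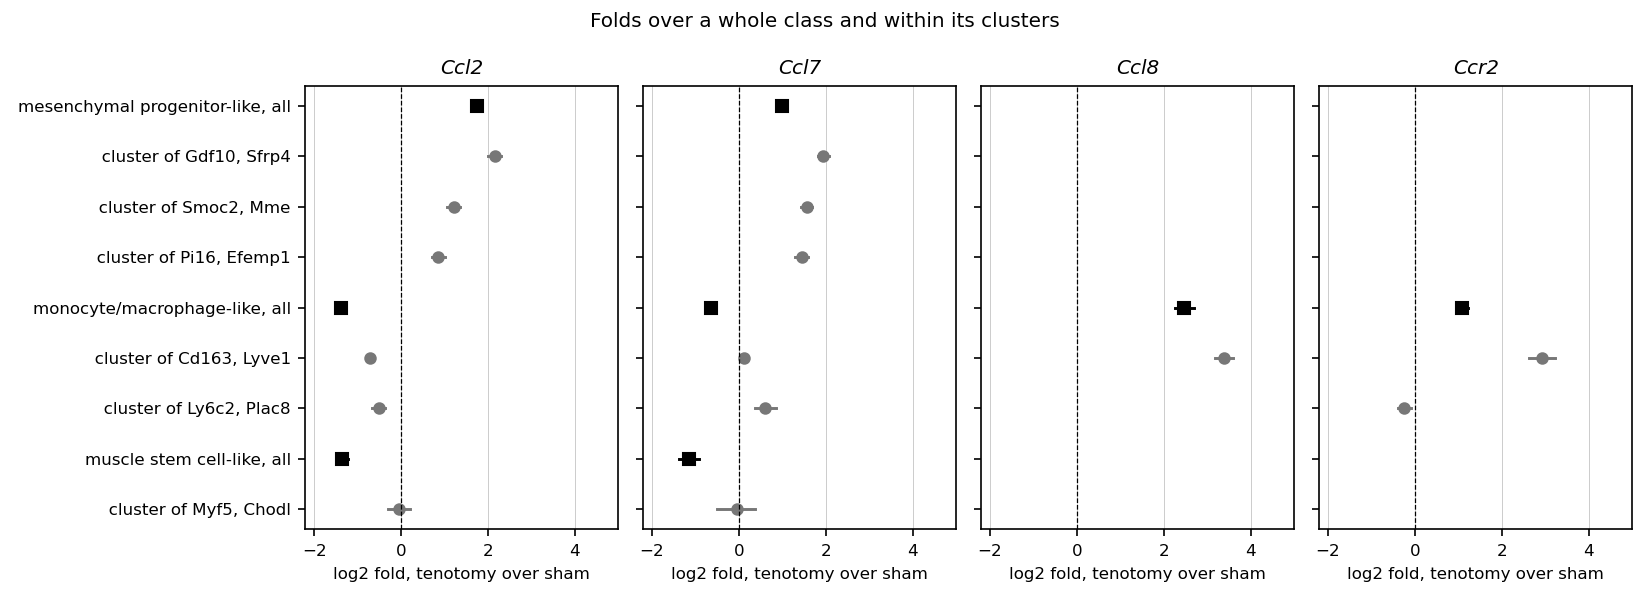
Log2 fold, tenotomy over sham, of Ccl2, Ccl7, Ccl8 and Ccr2 over whole classes (black squares) and within clusters that had at least 50 cells in each library (grey circles), with 95% intervals as lines and no difference at the dashed line. Folds are drawn where the gene was measured in the class and counted in both libraries. Mesenchymal clusters lie above 0 for Ccl2 and Ccl7, both macrophage clusters lie below 0 for Ccl2 and above 0 for Ccl7, and Ccr2 differs in sign between them.

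Ccl8 was the ligand with the largest difference over all cells, and most of its UMIs after tenotomy were in macrophage-like cells. Monocyte/macrophage-like cells had 350 CPM (10377 UMIs) after tenotomy and 63.1 CPM (184 UMIs) in sham muscle, a fold of 5.55 (4.80 to 6.45), and thinned shares of cells with a UMI were 11% in tenotomy and 5.05% in sham cells. Within the resident-type cluster it was at 916 CPM in tenotomy and 87.7 CPM in sham cells, a fold of 10.4 (9.0 to 12.2). At or below the cluster's median immediate early share the fold was 4.96 (3.41 to 7.55). The resident-type state had 2054 CPM in 144 tenotomy cells and 59.0 CPM in 213 sham cells, a fold of 34.8 (28.1 to 43.6), and thinned shares of 51.0% in tenotomy and 2.36% in sham cells. Its log2 fold of 5.12 was 3.03 and 4.33 at sub-clustering resolutions 0.3 and 0.8. Interferon-response cells (458 CPM), cycling cells (451 CPM) and Spp1, Gpnmb and Fabp5 cells (267 CPM) followed among tenotomy cells, and Ly6c2 monocytes had 30.2 CPM. The 448 tenotomy macrophage-like cells with the most Ccl8 held 89.5% of its UMIs, and the highest cell had 242. Mesenchymal cells had 31.9 CPM in tenotomy and 15.7 CPM in sham cells, below the limit for a measured gene. Their thinned shares of 4.31% in tenotomy and 1.56% in sham cells stand beside 4.01% of tenotomy and 0.101% of sham endothelial-like cells, so over the class the share after tenotomy was near background. In 2 of its clusters Ccl8 was measured. It was at 70.5 CPM in tenotomy and 15.7 CPM in sham cells in the Smoc2 and Mme cluster (fold 4.5, 3.09 to 6.41) and at 55.9 CPM in tenotomy and 14.4 CPM in sham cells in the Pi16 and Efemp1 cluster (fold 3.89, 2.68 to 5.70). Among tenotomy cells where Ccl8 was not measured, myofibre-like cells had 97.2 CPM (51.8 to 166) and B cell-like cells 42.0 CPM (27.4 to 61.6). Blood endothelial-like cells had 26.6 CPM. The levels in the 2 clusters were thus not clearly above background.

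Ccl12, which lies beside Ccl8, differed little over the macrophage-like class, with 131 CPM (127 to 135) after tenotomy and 106 CPM (94.9 to 119) in sham muscle, a fold of 1.23 (1.09 to 1.38). The log2 fold, 0.30, was −0.025 with libraries clustered apart. At or below the class's median immediate early share the fold was 30.1 (5.40 to 1192), but it rests on 1 Ccl12 UMI in 25 sham cells. Inside clusters it was higher after tenotomy by more. It was at 264 CPM in tenotomy and 138 CPM in sham cells in the resident-type cluster (fold 1.91, 1.68 to 2.18) and at 89.9 CPM in tenotomy and 31.9 CPM in sham cells in the Ly6c2 and Plac8 cluster (fold 2.82, 1.84 to 4.58), although with thinned cells the second fold was 1.05 (0.400 to 3.90). Among states the interferon-response one was highest, with 531 CPM (500 to 562) in 305 tenotomy cells, above resident-type cells with 316 CPM (281 to 353) and cycling cells with 279 CPM, and Ly6c2 monocytes had 4.54 CPM. In sham muscle resident-type cells had 132 CPM. The next named class was the tenocyte-like one, with 19.99 CPM after tenotomy and 0 UMIs in sham muscle, and 1 cell held 22 of its 33 tenotomy UMIs. Among thinned tenotomy macrophage-like cells, Ccl2 was found in 57.3% of cells with Ccl12 and 28.3% of cells without it.

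The receptor Ccr2 was at 350 CPM (343 to 356) in monocyte/macrophage-like cells after tenotomy and 165 CPM (151 to 180) in sham muscle, a fold of 2.12 (1.93 to 2.33). Thinned shares of cells with a UMI were 27.6% in tenotomy and 7.69% in sham cells, against 0.321% of tenotomy and 0% of sham blood endothelial-like cells. In the Ly6c2 and Plac8 cluster it was high in both libraries, at 453 CPM after tenotomy and 536 CPM in sham muscle (fold 0.846, 0.759 to 0.945), and with thinned counts the fold was 1.01 (0.680 to 1.57). In the resident-type cluster it was at 364 CPM after tenotomy and 47.7 CPM in sham muscle, a fold of 7.62 (6.22 to 9.43). It was 2.95 (1.90 to 4.85) at or below the cluster's median immediate early share and 12.2 (9.40 to 16.2) without the 1% of cells highest in Ccr2. That cluster holds more than the resident-type state, which had 70.6 CPM in 144 tenotomy cells and 52.3 CPM in 213 sham cells, a fold of 1.35 (0.960 to 1.89). The log2 fold of that state, 0.43, was 2.98 and 2.54 at sub-clustering resolutions 0.3 and 0.8. A sub-cluster of 949 tenotomy and 2 sham cells, led by Gm26917, Etv1 and Cbr2, had 480 CPM. Over states the ends of the order were the reverse of those of Ccl2. Ccr2 was highest in Ly6c2 monocytes, with 630 CPM (588 to 674) after tenotomy and 718 CPM (599 to 853) in sham muscle, and lower in interferon-response (396 CPM), cycling (336 CPM), Spp1, Gpnmb and Fabp5 (195 CPM) and resident-type (70.6 CPM) tenotomy cells. Among thinned tenotomy macrophage-like cells, Ccr2 was found in 17.3% of cells with Ccl8 and 28.9% of cells without it. Ccr2 was found in 26.6% of those with Ccl2 and 28.1% without. Among thinned sham macrophage-like cells it was found in 3.55% (1.44 to 7.18) of cells with Ccl2 and 11.4% (7.53 to 16.4) without.

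Beyond monocytes, Ccr2 was found in lymphoid and dendritic-like cells. T or natural killer-like cells had 342 CPM (295 to 395) in 137 tenotomy cells and 357 CPM (282 to 446) in 27 sham cells, a level whose interval overlapped that of monocyte/macrophage-like cells after tenotomy. Dendritic-like cells had 159 CPM in 597 tenotomy cells and 259 CPM in 23 sham cells. Both classes had too few sham cells for a comparison. Neutrophil-like cells had 3 measured members, and 1, Ccr2, was at least 2-fold higher (against 2.06% of 2864 genes). Ccr2 was at 56.5 CPM (157 UMIs in 695 cells) in tenotomy and 9.90 CPM (4.27 to 19.5, 8 UMIs in 91 cells) in sham cells. Thinned shares were 2.02% in tenotomy and 0% in sham cells, so the fold rests on few sham UMIs. A cluster led by Ltf, Camp and Elane, granule genes of immature neutrophils, had 69.6 CPM in 313 tenotomy cells and 13.3 CPM in 33 sham cells, and the cluster led by Cxcr2 and Il1r2 had 9.84 CPM in 382 tenotomy cells and 0 UMIs in 38 sham cells. Mesenchymal cells had 5.36 CPM in tenotomy and 0.417 CPM in sham cells, and 126 of their 168 tenotomy Ccr2 UMIs lay in 86 cells led by the leukocyte genes Plek, Ctss and Cd74. The class that held most Ccl2 UMIs after tenotomy thus had few Ccr2 UMIs, and most of them lay in those cells.

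Immediate early genes, which cells switch on within minutes of stress and also during enzymatic digestion, moved with several of these results. Their share of a cell's UMIs had a median of 0.495% in tenotomy and 2.49% in sham macrophage-like cells, 0.384% in tenotomy and 1.53% in sham mesenchymal cells and 0.232% in tenotomy and 1.24% in sham muscle stem cell-like cells. The 16 genes listed for this share include the heat-shock genes Hspa1a and Hspa1b. In macrophage-like cells these were at 933 and 907 CPM in tenotomy and 6798 and 6005 CPM in sham cells. The share and the strata drawn from it therefore hold a heat-shock part. Of the 16 listed genes, 14 of 15 measured were at least 2-fold lower after tenotomy in macrophage-like and in mesenchymal cells, and 15 of 16 in muscle stem cell-like cells. Of all measured genes, 7.85% were lower by that limit in macrophage-like, 16.0% in mesenchymal and 17.4% in muscle stem cell-like cells. Among macrophage-like cells at or below the median share of the class, Ccl2 was at 512 CPM in 2433 tenotomy cells and 633 CPM in 25 sham cells, and above it 842 CPM in 2046 tenotomy cells and 1848 CPM in 412 sham cells. Among mesenchymal cells Ccl2 was at 1325 CPM in tenotomy and 625 CPM in sham cells at or below the median and at 1177 CPM in tenotomy and 338 CPM in sham cells above it. The directions of Ccl2 in both classes were thus found in both strata, while in macrophage-like cells the log2 fold of Ccl7 was 1.02 and that of Ccr2 was −0.29 at or below the median. What part of the differences came with digestion was not tested.

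Other genes of the pathway were read from lists. Ccr1, another receptor of these ligands, was at 291 CPM in tenotomy and 135 CPM in sham macrophage-like cells (fold 2.15). Among the genes whose pattern over the 23 combinations was most like that of Ccr2 were Mpeg1 (r = 0.932) and Cd300c2 (0.930). In blood endothelial-like cells Ackr1, the venular receptor that binds chemokines without signalling, was at 160 CPM (898 UMIs) after tenotomy and 1.05 CPM (12 UMIs) in sham muscle. A cluster of 62 tenotomy and 7 sham cells led by Selp, Ackr1 and Sele was part of this class. Another cluster led by Selp, Sele, Plvap and Ackr1, with 3 tenotomy and 38 sham cells, stayed unnamed and was left out. These Ackr1 levels therefore do not set like venular cells side by side. In mesenchymal cells Ackr1 was at 15.4 CPM in tenotomy and 59.2 CPM in sham cells, and Ackr2, a scavenging receptor, was at 1.12 CPM in tenotomy and 18.2 CPM in sham cells and not measured. None of the 6 measured genes of the receptor signalling list in macrophage-like cells differed by 2-fold. Of all genes measured in that class, 6.65% passed 2-fold upward and 7.85% downward. Finding none among 6 genes therefore does not set this list apart.

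Of the 18 inducers and NF-kappa B genes, 14 were measured in macrophage-like cells. Only Tnfrsf1b, a receptor of TNF, was at least 2-fold higher (280 CPM in tenotomy and 93.7 CPM in sham cells), with none lower. Of all genes measured there, 6.65% were higher and 7.85% lower by that limit. Tnf itself was at 287 CPM in tenotomy and 479 CPM in sham cells, Il1b at 910 CPM in tenotomy and 755 CPM in sham cells and Nfkbia, the NF-kappa B inhibitor that NF-kappa B itself induces, at 708 CPM in tenotomy and 868 CPM in sham cells. In mesenchymal cells 11 were measured, none was at least 2-fold higher and 4 were at least 2-fold lower (against 16.0% of all genes measured there), among them Ifngr1 at 59.0 CPM in tenotomy and 296 CPM in sham cells, Myd88 at 32.4 CPM in tenotomy and 87.1 CPM in sham cells and Nfkbia at 276 CPM in tenotomy and 644 CPM in sham cells. In muscle stem cell-like cells 8 of 9 measured were at least 2-fold lower (against 17.4% of all genes measured there). Among them Nfkb1 was at 204 CPM in tenotomy and 926 CPM in sham cells. In blood endothelial-like cells Il6 was at 440 CPM in tenotomy and 18.8 CPM in sham cells and Tnf at 22.9 CPM in tenotomy and 53.8 CPM in sham cells.

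In the 2 main source classes no other CC chemokine measured was at least 2-fold higher after tenotomy. In tenocyte-like cells 3 of 4 were (against 6.05% of all genes measured there) and 1 was at least 2-fold lower (against 6.24%). In macrophage-like cells 5 of 13 were measured and 3 were at least 2-fold lower (against 7.85% of all genes measured there). Of these 3, Ccl24 was at 67.7 CPM in tenotomy and 467 CPM in sham cells. Ccl4 was at 626 CPM in tenotomy and 2413 CPM in sham cells and Ccl3 at 389 CPM in tenotomy and 814 CPM in sham cells. Ccl11, the eosinophil attractant encoded between Ccl7 and Ccl12, was the only one measured in mesenchymal cells and was at 105 CPM after tenotomy and 1187 CPM in sham muscle, a fold of 0.0884 (0.0851 to 0.0917), opposite to its neighbours. Among proteases that cut these chemokines, Mmp14 was at 79.7 CPM in tenotomy and 5.15 CPM in sham macrophage-like cells. Mmp9 was there at 3.17 CPM (94 UMIs) in tenotomy and 95.1 CPM (277 UMIs) in sham cells. The class held a sub-cluster of 24 sham and 0 tenotomy cells with the neutrophil markers Retnlg, S100a9 and S100a8 among its leading genes. Which cells held the Mmp9 UMIs was not tested. In mesenchymal cells Mmp2 was at 403 CPM in tenotomy and 909 CPM in sham cells and Dpp4 at 29.5 CPM in tenotomy and 86.5 CPM in sham cells. Of 12 genes of monocyte homing and survival, 6 were measured in macrophage-like cells. Of these, 1, Cx3cr1, was at least 2-fold higher (against 6.65% of all genes measured there). It was at 81.0 CPM in tenotomy and 31.2 CPM in sham cells.

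Over the same 23 combinations the genes most like Ccl8 were Ms4a7 (r = 0.885), Trem2 (0.853) and Ms4a6d (0.825), and those most like Ccl12 were Apoc2 (0.917), Tlr7 (0.911) and C3ar1 (0.892). After Ccl7, Ccl2 was most like Dse (r = 0.753) and Plxnb2 (0.747), and Ccl7 most like Dse (0.816) and Fam20c (0.765). The pair of Ccl8 and Ccl12 had r = 0.644, and with Ccr2 they had 0.736 for Ccl8 and 0.742 for Ccl12. Values of this kind rest on few classes and share libraries and depth.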

How the data were processed

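Single-cell RNA sequencing was done on sorted living cells of pooled plantaris muscles, 1 droplet library per group, with 10x Chromium Next GEM 3′ chemistry per the labels' protocols. The authors deposited raw counts of UMIs per gene ID and cell barcode, with no normalization, and the submitters' processing notes name Cell Ranger 4.0.0 and mm10. All values were whole numbers and the lowest barcode had 500 UMIs. Of 32285 gene IDs, 32158 matched a symbol in the reference table.

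Cells with at least 300 genes, 500 UMIs and at most 10% mitochondrial UMIs were kept (190 tenotomy and 136 sham barcodes fell below the gene limit and 697 and 715 lay above the mitochondrial limit). Doublets were predicted with scrublet at the threshold of the tenotomy library, 0.212, which removed 320 (2.85%) and 190 (2.46%) cells, since the sham library's own threshold called 1. Both libraries were clustered together with scanpy 1.11.5 (2000 variable genes per library without the 5 genes and the pathway lists, 30 principal components, 15 neighbours, Leiden resolution 1, sub-clusters at 0.5). Clusters were named from fixed markers, 8 of 39 stayed unnamed, and names are rebuilt, not the authors'. UMIs were summed per class and library and divided by the class total to give CPM. Folds have exact conditional binomial intervals, levels exact Poisson intervals and shares exact Clopper-Pearson intervals, all covering counting error only. A count of 0 was set to 3 for a bound. With 1 library per group no test was possible. The fold calculation was tested on simulated data. Correlations used classes with at least 50 cells in a library.

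The genes named were the 5 members in every class, up to 3 genes of each pathway list per direction in the mesenchymal, macrophage-like, muscle stem cell-like and blood endothelial-like classes, taken in order of the interval end closest to no difference, plus Ccr1, Ackr1, Ackr2, Tnf, Il1b and Nfkbia. Results of 1 further gene are not reported here. Members and lists were chosen with earlier results of these data known. Alternatives covered cell limits, doublets, clustering, scaling, depth, cell cycle, immediate early genes and outlying cells.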

Additional observations from a re-analysis of the deposited data

Results flagged for a closer look

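The tenotomy over sham folds of Ccl2 pointed in opposite directions in pairs of cell classes, and these differences were not tested, since each group is 1 library. The log2 fold of Ccl2 was 1.75 in mesenchymal progenitor-like cells and −1.38 in monocyte/macrophage-like cells, 3.13 apart, and −1.35 in muscle stem cell-like cells, 3.1 apart. In tenocyte-like cells it was 1.27, which is 2.65 above macrophage-like cells and 2.62 above muscle stem cell-like cells, but it was 0.16 above the class's median immediate early share, where Ccl7 was 0.13. For Ccl7 the log2 fold was 1.97 in tenocyte-like cells and −1.15 in muscle stem cell-like cells, 3.12 apart, and 1.82 in pericyte or smooth muscle-like cells, 2.97 above muscle stem cell-like cells, with 0.83 for pericyte-like cells when thinned. Within the Myf5 and Chodl cluster of muscle stem cell-like cells the folds were 0.970 for Ccl2 and 0.964 for Ccl7.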

How the results depend on the processing

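Of 610 alternative values for 70 log2 folds, 32 had the other sign, 22 of them where the interval of the reported fold left out no difference and 10 where it did not. The fold of Ccl2 in macrophage-like cells, −1.38, stayed negative in every alternative run. It was −1.29 and −1.31 at Leiden resolutions 0.5 and 1.5, −1.49 with at least 1000 UMIs per cell, −1.13 above and −0.31 at or below the median immediate early share, −1.49 divided by the median fold of measured genes, −1.67 with libraries clustered apart, −1.52 as a mean over cells, −1.48 thinned, −1.56 without cycling cells and −1.22 without the 1% highest cells. In mesenchymal cells Ccl2, 1.75, stayed positive, at 1.80 above and 1.08 at or below that median, 1.65 divided by the median fold, 1.68 as a mean over cells, 1.68 with doublets kept, 1.70 thinned, 2.33 without the 1% highest cells and 2.07 without the Apod and Sbspon sub-cluster. Ccl8 in macrophage-like cells, 2.47, was 2.19 with at least 1000 UMIs, 2.96 above and 4.44 at or below the median (3 sham UMIs), 2.09 clustered apart, 1.88 as a mean over cells, 2.19 thinned and 2.25 without cycling cells. Ccr2, 1.08, was 1.41 and 0.90 at the 2 resolutions, 1.58 with at least 1000 UMIs, 1.5 above the median, 2.57 clustered apart, 1.84 as a mean over cells, 0.92 with doublets kept, 1.96 thinned, 1.42 without sub-clusters led by another class and 1.35 without the 1% highest cells, but −0.29 at or below the median (25 sham cells).

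With classes weighted equally, mesenchymal cells held 23.1% of Ccl2 in tenotomy and 10.9% in sham cells and macrophage-like cells 11.5% in tenotomy and 47.6% in sham cells. Mesenchymal cells then held 24.3% of Ccl7 in tenotomy and 21.1% in sham cells, also the other way round from the shares of UMIs. With named classes only, the mesenchymal tenotomy share was 63.7%. The other values with the other sign were these, first those whose interval left out no difference. In neutrophil-like cells Ccl2 and Ccl7 were −0.90 and −0.65 above the median, −0.76 and −0.12 as a mean over cells, −0.99 and −0.13 thinned, and −0.47 and −0.024 without cycling cells. In myofibre-like cells they were −2.86 and −0.92 with at least 1000 UMIs and −2.84 and −5.39 clustered apart. In macrophage-like cells Ccl7 was 1.02 at or below the median and −1.27 there in the resident-type cluster, Ccl12 was −0.025 clustered apart, and Ccr2 in the Ly6c2 and Plac8 cluster was 0.016 thinned. Ccl7 in muscle stem cell-like cells was 0.0063 above the median. At sub-clustering resolution 0.3 Ccl7 in the Pi16 and Dpp4 state was 0.29, and at 0.8 it was 1.45 there, with Ccl2 at 1.67, and −0.56 in the Gdf10 and Sfrp4 state. Among the 10 whose interval held no difference, Ccl2 in the Gdf10 and Sfrp4 state, −0.13, was 2.62 at resolution 0.3 and 0.11 without the 1% highest cells. Ccl8 in the Pi16 and Dpp4 state, −0.71, was 1.68 and 1.54 at 0.3 and 0.8, and Ccl12 in neutrophil-like cells, 2.31, was −0.15 thinned. In the Myf5 and Chodl cluster Ccl2, −0.044, was 0.31 at or below the median, 0.066 thinned and 0.00093 without cycling cells, and Ccl7, −0.052, was 0.015 at or below the median and 0.0021 without cycling cells. Ccl2 in tenocyte-like cells, 1.27, was below the 2-fold limit at 0.91 with at least 1000 UMIs, 0.98 as a mean over cells, 0.94 thinned, and 0.16 above and 0.74 at or below the median. The causes were not tested.

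The values within clusters, without sub-clusters led by another class and without the Apod and Sbspon sub-cluster were chosen after seeing the data. No paired analysis was possible because each group is 1 pooled library, which also leaves no replicate to leave out. Classes with few cells in a library limit the depth of every comparison they enter.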
